A study of Homo sapiens with 18 samples.

Results

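The aldehyde dehydrogenase (ALDH) family is the enzyme family that disulfiram (DSF) inhibits, and its transcripts were examined here in purified EpCAM+ cells of 2 hepatocellular carcinoma (HCC) lines after exposure to DSF or 5-fluorouracil (5-FU). The members were 10 genes fixed by name, ALDH1A1, ALDH1A2, ALDH1A3, ALDH1B1, ALDH1L1, ALDH2, ALDH3A1, ALDH3A2, ALDH7A1 and ALDH8A1, out of 19720 genes that could be named on the array. They were represented by 15 of its 42405 probes, and 8 of the 10 genes were bright enough to be tested, as were 15844 genes in all. The 6 groups were Huh1 control, Huh1 DSF, Huh1 5-FU, Huh7 control, Huh7 DSF and Huh7 5-FU, with 3 single-colour arrays each from 3 independent experiments. DSF was given at 0.1 µM and 5-FU at 1 µM for 48 hours. In the methods, DSF is paired with copper chloride, so an effect of the drug and one of copper cannot be told apart, and they do not state what control cells received. Huh1 and Huh7 are established HCC lines, and cells of both were sorted for the surface molecule EpCAM.

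ALDH enzymes oxidise aldehydes to acids with NAD or NADP as cofactor. In the liver, mitochondrial ALDH2 clears the acetaldehyde made from ethanol, cytosolic ALDH1A enzymes make retinoic acid from retinal, and other members act on fatty aldehydes, folate derivatives and the breakdown products of lysine, choline and tryptophan. DSF blocks their catalytic cysteine, so it acts on the proteins, whereas the arrays measured only their mRNA. ALDH activity is also widely used to mark tumor-initiating cells.

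Every value below is the log2 signal of a probe relative to the 75th percentile of its own array, and a difference is a log2 fold change from a limma fit over all 6 groups. A gene was read from the brightest of its probes and called when its p-value, adjusted by Benjamini-Hochberg over all tested probes, was under 0.05. Levels of different probes were not compared. In bulk RNA, fewer cells of a kind and less RNA per cell cannot be told apart. Called changes were common among all genes, so the count of members called is given beside the share of all genes called. A permutation test of 3 against 3 arrays cannot give an exact p below 0.1, and the limma p-values borrow their precision from the other probes.

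Several arrays stood apart. Replicate 1 of Huh1 5-FU differed from replicates 2 and 3 by a median of 0.2103 and 0.2037 over probes, whereas those differed from each other by 0.0571. For replicate 1 of Huh7 DSF these medians were 0.185 and 0.1769, against 0.0693 between replicates 2 and 3. Huh7 DSF replicates 2 and 3 were scanned on another day than all other arrays. On them 70.65% and 71.1% of probes were well above background, against 64.65% on Huh7 DSF replicate 1. Of the 3 slides, slide 1 held all Huh1 control and Huh1 5-FU arrays with Huh1 DSF replicates 1 and 2, slide 2 held Huh1 DSF replicate 3, all Huh7 control and Huh7 5-FU arrays and Huh7 DSF replicate 1, and slide 3 held only Huh7 DSF replicates 2 and 3. Therefore, 5-FU and control were always compared on 1 slide. DSF in Huh7 was compared largely across slides, and the control arrays of the lines entirely so. Since slide 3 held no other group, a fit with slide as a block reads Huh7 DSF from replicate 1 alone. In every comparison below that includes Huh7 DSF, values and calls with this block rest on that 1 array. The same fit reads Huh1 DSF from replicates 1 and 2, and takes the gap between slides 1 and 2 from replicate 3 against them. The log2 75th percentile minus the mean of 7 spike-in probes was from -3.27 to -3.23 in Huh1 control, from -2.45 to -2.41 in Huh1 5-FU, from -3.26 to -3.10 in Huh7 control and from -2.32 to -2.02 in Huh7 5-FU. When arrays were scaled to the spike-in probes instead, every 5-FU change rose by the same amount, 0.83 in Huh1 and 0.98 in Huh7, and the median of all tested probes was 0.795 and 0.936. All 5-FU changes below are therefore relative to the bulk of genes, and a fall smaller than these amounts turned into a rise under spike-in scaling. The DSF changes moved by 0.13 in Huh1 and -0.18 in Huh7. The part of this shift in the results was not tested.

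The promoters of 4 members are printed because these genes carried the contrasts described below: ALDH1A1 and ALDH7A1, whose brightest probes were called lower in all 4 comparisons of a drug with control, and ALDH1B1 and ALDH3A2, whose direction differed between the lines or drugs. They are the 250 bases before the start site in RefSeq on GRCh38.p14, chr9:72953054-72953303 on the minus strand for ALDH1A1, chr5:126595220-126595469 on the minus strand for ALDH7A1, chr9:38392452-38392701 on the plus strand for ALDH1B1 and chr17:19647886-19648135 on the plus strand for ALDH3A2, written 5′ to 3′ along the gene. Capitals mark matches on either strand to the CCAAT box (CCAAT), the TATA box (TATAAA) and the GC box (GGGCGG).
ALDH1A1: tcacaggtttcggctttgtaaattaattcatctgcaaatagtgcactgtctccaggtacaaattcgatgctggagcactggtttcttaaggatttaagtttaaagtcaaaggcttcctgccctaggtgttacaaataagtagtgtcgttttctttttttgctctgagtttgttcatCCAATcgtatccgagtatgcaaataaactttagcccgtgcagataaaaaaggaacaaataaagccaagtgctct
ALDH7A1: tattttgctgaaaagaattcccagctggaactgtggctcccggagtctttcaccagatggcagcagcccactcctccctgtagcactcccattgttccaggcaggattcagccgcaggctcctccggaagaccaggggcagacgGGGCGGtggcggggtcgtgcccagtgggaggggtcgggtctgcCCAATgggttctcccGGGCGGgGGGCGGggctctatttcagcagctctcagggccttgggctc
ALDH1B1: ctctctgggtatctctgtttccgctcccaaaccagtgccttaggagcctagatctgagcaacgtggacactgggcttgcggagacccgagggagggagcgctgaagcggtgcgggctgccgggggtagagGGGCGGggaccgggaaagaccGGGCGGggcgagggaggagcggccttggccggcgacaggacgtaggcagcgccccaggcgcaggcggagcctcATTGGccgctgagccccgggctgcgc
ALDH3A2: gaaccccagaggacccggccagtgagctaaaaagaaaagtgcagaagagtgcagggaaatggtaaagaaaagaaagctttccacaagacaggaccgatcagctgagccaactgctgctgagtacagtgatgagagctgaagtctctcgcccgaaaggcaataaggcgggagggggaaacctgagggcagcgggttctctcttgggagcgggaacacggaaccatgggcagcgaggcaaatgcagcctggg
The ALDH1A1 promoter was AT-rich, with a GC content of 38.4% against a median of 58.0% over 35116 promoters, and held 1 CCAAT box and no GC box. That of ALDH7A1 had a GC content of 64.0%, 1 CCAAT box and 3 GC boxes, and that of ALDH1B1 70.4%, 1 CCAAT box and 2 GC boxes. In ALDH3A2, at 55.6% GC, none of these 3 motifs was found. Of all promoters, 32.0% held a CCAAT box, 42.6% a GC box and 10.7% a TATA box. For the 8 members with a listed promoter, 1 promoter each was searched, although ALDH1A2, ALDH1L1 and ALDH3A2 had 2 listed starts. In none of these was the core of the antioxidant response element (TGACNNNGC, in 10.9% of all promoters). The G form of the metal response core (TGCGCNC, in 16.8%) was also in none. Its A form (TGCACNC, in 9.87%) was, among those searched, only in that of ALDH3A2. ALDH2 and ALDH3A1 were not matched in the promoter table.

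DSF lowered 6 of the 8 tested members in Huh1 and raised none, where 52.7% of all genes were called, 26.4% higher and 26.3% lower. The genes that fell were ALDH1A1, ALDH1B1, ALDH1L1, ALDH2, ALDH3A2 and ALDH7A1. All of these but ALDH2 stayed called with slide as a block, which reads Huh1 DSF from replicates 1 and 2. That fit called 12732 of 29894 probes in this comparison. The median change of the 8 was -0.77 and that of all genes -0.021. In Huh7, the fit called 3 members lower after DSF (ALDH1A1, ALDH2 and ALDH7A1) and 3 higher (ALDH1B1, ALDH3A1 and ALDH1L1, the latter between arrays mostly at background, which is not read as a rise), where 53.2% of all genes were called, 29.1% higher and 24.1% lower. Here the median change was -0.17 against 0.038 for all genes. With slide as a block, which sets DSF replicate 1 alone against the Huh7 controls, ALDH1B1 was 0.42, ALDH2 -0.50 and ALDH7A1 -0.57. In that fit ALDH1A1 was -0.37, and ALDH3A1 changed sign to -0.10.

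5-FU lowered 7 of the 8 tested members in Huh1 relative to the bulk of genes, all but ALDH8A1, where 54.9% of all genes were called, 25.9% higher and 29.1% lower. The median change was -0.55 against -0.025 for all genes. In Huh7, 4 members fell (ALDH1A1, ALDH1B1, ALDH2 and ALDH7A1) and 3 rose (ALDH3A1, ALDH3A2 and ALDH8A1), where 63.5% of all genes were called, 32.5% higher and 31.0% lower, and the median change was -0.28 against -0.005. Under spike-in scaling, ALDH1L1 in Huh1 was the only one of these 11 lower values that stayed below 0. Arrays of drug and control did not overlap for 7 members after DSF and 6 after 5-FU in Huh1, and for 5 and 7 in Huh7. The shares of all genes were 68.0%, 62.6%, 69.4% and 71.9%. ALDH1L1, mostly at background in Huh7, is among the 5 there after DSF and counts in the Huh7 medians of both drugs.

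**Figure D1:**
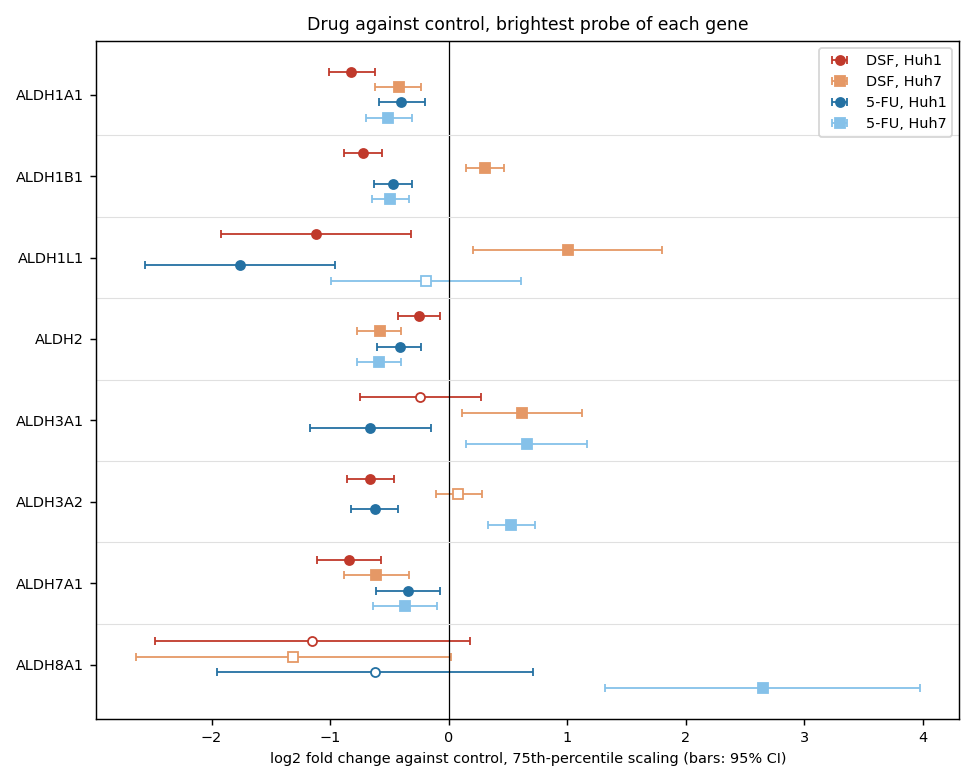
Log2 fold change against control (horizontal axis, 75th-percentile scaling) of the brightest probe of each tested member after DSF or 5-FU in Huh1 (circles) and Huh7 (squares), with 95% confidence intervals. Filled symbols passed the adjusted p threshold. ALDH1A1, ALDH2 and ALDH7A1 lie below 0 in all 4 comparisons, and spike-in scaling puts the 5-FU values of these 3 genes above 0.

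ALDH1A1 is the cytosolic enzyme that oxidises retinal and the member most often measured in assays of ALDH activity. Its brightest probe read 7.43, 7.61 and 7.53 in Huh1 control, 6.73, 6.70 and 6.69 after DSF and 7.30, 7.01 and 7.07 after 5-FU. In Huh7 it read 6.78, 6.77 and 6.74 in control, 6.39, 6.26 and 6.36 after DSF and 6.35, 6.37 and 6.05 after 5-FU. Neither drug group overlapped its control in either line. DSF lowered it by a log2 change of -0.82 ± 0.09 (SE) in Huh1, or 1.76-fold (limma adjusted p = 5.97e-06), and by -0.42 ± 0.09 in Huh7, or 1.34-fold (limma adjusted p = 0.00167). The second probe gave -1.04 and -0.58, both called. The Huh7 value with slide as a block was -0.37 and missed the threshold (limma adjusted p = 0.0612). The 5-FU changes were -0.40 ± 0.09 in Huh1 (limma adjusted p = 0.0023), and the Huh7 value was -0.51 ± 0.09 (limma adjusted p = 0.000251). These depended on the scaling, since quantile normalization gave 0.02 and -0.09 and spike-in scaling 0.43 and 0.48. ALDH1A2 and ALDH1A3, which also make retinoic acid, were at background throughout, with 0 of 18 arrays well above it. The lowest and highest readings of ALDH1A2 were -8.74 and -7.19, and those of ALDH1A3 -8.71 and -7.62, so neither was tested.

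ALDH2 is the mitochondrial enzyme that clears acetaldehyde and the textbook target of DSF in alcohol aversion. In Huh1 it read 3.36, 3.68 and 3.68 in control, 3.33, 3.30 and 3.34 after DSF and 3.27, 3.11 and 3.10 after 5-FU. Control replicate 1 lay next to the DSF arrays, whereas the other two controls lay apart. The DSF change was accordingly small, -0.25 ± 0.09 (limma adjusted p = 0.0288), and lost its call when any of 5 of the 6 arrays was left out. Its values then ran from -0.20 without control replicate 2 or 3 to -0.26 without DSF replicate 3. Leaving out control replicate 1 gave -0.36 (limma adjusted p = 0.00154). The call was also lost with slide as a block (-0.26, limma adjusted p = 0.0516), with Huh1 fitted on its own (limma adjusted p = 0.0717) and under spike-in scaling (-0.12, limma adjusted p = 0.601). In Huh7, ALDH2 read 4.40, 4.42 and 4.45 in control, 3.93, 3.80 and 3.80 after DSF and 3.77, 3.95 and 3.78 after 5-FU. Both drug groups lay clear of control, by -0.58 ± 0.09 after DSF (limma adjusted p = 8.37e-05) and -0.59 ± 0.09 after 5-FU (limma adjusted p = 4.03e-05). The 5-FU change in Huh1 was -0.41 ± 0.09 (limma adjusted p = 0.00119). Spike-in scaling turned the 5-FU values to 0.42 in Huh1 and 0.40 in Huh7.

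ALDH1B1, a second mitochondrial enzyme that also accepts acetaldehyde, went in opposite directions after DSF. It read 1.10, 1.22 and 1.17 in Huh1 control and 0.45, 0.39 and 0.49 after DSF. In Huh7 it read 0.80, 0.83 and 0.81 in control and 1.23, 1.05 and 1.09 after DSF. The arrays did not overlap in either line. The changes were -0.72 ± 0.07 in Huh1 (limma adjusted p = 3.37e-06), and the Huh7 value was 0.31 ± 0.07 (limma adjusted p = 0.00363). Within the slide that held all Huh7 controls the latter was 0.42, from 1 DSF array, and under spike-in scaling it was 0.13 (limma adjusted p = 0.55). The difference between the lines, 1.03 ± 0.11, was itself called (limma adjusted p = 5.6e-06). After 5-FU, ALDH1B1 read 0.80, 0.63 and 0.63 in Huh1 and 0.39, 0.18 and 0.39 in Huh7, and both changes were lower and close in size, -0.47 ± 0.07 and -0.49 ± 0.07 (limma adjusted p = 0.000131 and 5.56e-05). Their difference, -0.02, had a 95% interval from -0.25 to 0.21. Spike-in scaling moved them to 0.36 and 0.49.

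ALDH3A2 is the fatty aldehyde dehydrogenase of the endoplasmic reticulum and had 2 probes on different RefSeq transcripts. The brightest read 6.13, 6.24 and 6.13 in Huh1 control, 5.55, 5.46 and 5.52 after DSF and 5.68, 5.49 and 5.46 after 5-FU. In Huh7 it read 2.49, 2.49 and 2.60 in control, 2.83, 2.51 and 2.50 after DSF and 2.93, 3.16 and 3.09 after 5-FU. In Huh1 both drug groups lay below control, whereas in Huh7 the 5-FU arrays lay above it and the DSF arrays overlapped it. The changes in Huh1 were -0.66 ± 0.09 after DSF (limma adjusted p = 5.09e-05) and -0.62 ± 0.09 after 5-FU (limma adjusted p = 7.75e-05). In Huh7 they were 0.08 ± 0.09 (limma adjusted p = 0.476) and 0.53 ± 0.09 (limma adjusted p = 0.000204). The second probe gave a larger fall after DSF, -1.12 ± 0.08 in Huh1 and -0.34 ± 0.08 in Huh7, both called, and 0.16 ± 0.08 after 5-FU in Huh7 (limma adjusted p = 0.108). Thus, the probes differed in size and, in Huh7, in which drug effect was called. Spike-in scaling turned the 5-FU value in Huh1 to 0.20.

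ALDH3A1, a cytosolic enzyme that removes aromatic and lipid-derived aldehydes, was also read by a pair of probes, on different RefSeq transcripts. The brightest read 4.71, 4.31 and 4.14 in Huh1 control, 4.03, 4.13 and 4.28 after DSF and 4.02, 3.57 and 3.60 after 5-FU. In Huh7 it read -2.71, -2.75 and -2.84 in control, -2.87, -1.76 and -1.81 after DSF and -2.01, -2.11 and -2.20 after 5-FU. The higher DSF values were those of the 2 arrays on slide 3. The resulting change of 0.62 ± 0.24 (limma adjusted p = 0.0458) became -0.10 with slide as a block (limma adjusted p = 0.768). The second probe, which read -3.65, -3.74 and -3.57 after DSF and -3.64, -3.77 and -3.67 in control, gave 0.04 ± 0.12 (limma adjusted p = 0.811), so this call rested on 1 probe. The changes after 5-FU had the same sign on both probes, -0.66 and -0.68 in Huh1 and 0.66 and 1.03 in Huh7. On the second probe they were called more clearly (limma adjusted p = 0.000379 and 5.43e-06) than on the brightest (limma adjusted p = 0.0344 and 0.0276), where the Huh7 call was lost in 5 of 6 fits that left out 1 array and the Huh1 call in 4 of 6. Without Huh1 control replicate 1, the change in Huh1 was -0.49, and without Huh7 5-FU replicate 1, the change in Huh7 was 0.61. Under spike-in scaling, the Huh1 value of the brightest probe was 0.17.

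ALDH7A1, which acts in lysine breakdown and on betaine aldehyde in the choline pathway, had 3 probes of the same transcript. Its brightest probe read 3.01, 3.20 and 3.11 in Huh1 control, 2.23, 2.22 and 2.34 after DSF and 3.18, 2.56 and 2.55 after 5-FU. In Huh7 it read 1.79, 1.77 and 1.78 in control, 1.21, 1.15 and 1.17 after DSF and 1.36, 1.35 and 1.52 after 5-FU. All DSF arrays lay below control in both lines. The DSF change was -0.84 ± 0.13 in Huh1 (limma adjusted p = 9.92e-05), and the Huh7 value was -0.61 ± 0.13 (limma adjusted p = 0.00149). The other two probes gave -0.89 and -1.15 in Huh1 and -1.02 and -1.11 in Huh7, all called. The 5-FU changes on the brightest probe were smaller, -0.34 ± 0.13 in Huh1 (limma adjusted p = 0.0401), and the Huh7 value was -0.37 ± 0.13 (limma adjusted p = 0.0227). They turned to 0.49 and 0.61 under spike-in scaling, and the other probes gave from -0.17 to 0.37 in Huh1 and from -0.43 to 0.11 in Huh7. Huh1 5-FU replicate 1 lay within the control range, and without it the Huh1 value was -0.55 (limma adjusted p = 2.88e-05). The Huh1 call was lost in 4 of 6 fits that left out 1 array, down to -0.23 without 5-FU replicate 3, and the Huh7 call in 4 of 6, with values from -0.42 to -0.34.

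ALDH8A1 acts in the kynurenine pathway of tryptophan breakdown. It read -0.06, -0.22 and -0.21 in Huh1 control, -1.38, -1.33 and -1.22 after DSF and -0.17, -1.12 and -1.06 after 5-FU. The DSF arrays lay below control without overlap, yet the change of -1.15 ± 0.62 missed the threshold (limma adjusted p = 0.153), as the shared spread was set by Huh7. When Huh1 was fitted on its own, the same difference was called (limma adjusted p = 0.00526). In Huh7 control it read -5.60, -6.44 and -2.89, with replicate 2 not well above background and replicate 3 far above the others. After DSF it read -6.07, -6.22 and -6.56, well above background on 2 of 3 arrays, and after 5-FU -2.69, -2.41 and -1.87. All 5-FU arrays lay above all controls, by 2.65 ± 0.62 (limma adjusted p = 0.00206), and the value was between 1.92 and 3.70 when 1 array was left out and was called each time. The DSF value in Huh7, -1.31 ± 0.62, was not called (limma adjusted p = 0.0988) but was when control replicate 2 was left out (-2.04, limma adjusted p = 0.0109), and it was -0.26 at the other end of these fits.

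ALDH1L1 is the cytosolic 10-formyltetrahydrofolate dehydrogenase, which takes one-carbon units out of the folate pool. In Huh1 it read 2.91, 2.87 and 2.87 in control, 1.74, 1.77 and 1.77 after DSF and 1.89, 0.77 and 0.70 after 5-FU. Both drug groups lay far below control with tight DSF replicates. The DSF change was -1.12 ± 0.37 (limma adjusted p = 0.0243). It lost its call in all 6 fits that left out 1 array, with values from -1.13 to -1.11 and limma adjusted p-values from 0.0531 to 0.0583. The SD was 0.02 in Huh1 control and 0.02 after DSF. The spread shared by the fit also took in SDs of 0.67 in Huh1 5-FU and 0.20, 0.46 and 0.85 in Huh7 control, DSF and 5-FU. The 5-FU change was -1.76 ± 0.37 (limma adjusted p = 0.00133), and -2.15 without 5-FU replicate 1. In Huh7 the probe was not well above background on any control or 5-FU array and on only 1 of 3 DSF arrays. It read -7.57, -7.86 and -7.46 in Huh7 control, -6.84, -8.32 and -8.31 after 5-FU and -6.13, -6.72 and -7.03 after DSF, of which only the last was measured above background. Therefore, no direction is given for ALDH1L1 in Huh7, although the fit called it higher after DSF.

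Without drug, the lines differed in all 8 tested members, where 77.9% of all genes were called, 39.3% higher and 38.6% lower in Huh7, and arrays did not overlap for 84.7% of all genes. The controls of the lines lay on different slides, which only the Huh1 DSF group spanned. A slide block therefore takes the gap between these slides from Huh1 DSF replicate 3 against replicates 1 and 2. In that fit all 8 kept their direction, with ALDH3A1 at -7.36, ALDH3A2 at -3.65 and ALDH2 at 0.82. It cannot serve as a separate check of the line gap, as on slide 2 its slide term rests on replicate 3 alone. ALDH2 was higher in Huh7, by 0.85 ± 0.09 (limma adjusted p = 4.38e-07), and the other 7 were lower, with a median of -2.48 over the 8 against -0.013 over all genes. The smallest gaps were those of ALDH1B1 (-0.35), ALDH1A1 (-0.76) and ALDH7A1 (-1.32, with -0.34 and -1.41 on its other probes). The largest were ALDH3A1, at -7.15 on its brightest probe and -7.74 on the second, and ALDH1L1, which was at least 815-fold higher in Huh1 than the floor in Huh7. ALDH3A2 (-3.64) and ALDH8A1 (-4.81) lay between.

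DSF and 5-FU were compared directly within each line. On the brightest probes in Huh1, DSF gave lower values than 5-FU for ALDH1A1 (-0.42), ALDH1B1 (-0.25) and ALDH7A1 (-0.50) and no higher one. Of all genes, 55.8% were called, 30.5% higher and 25.3% lower. Without 5-FU replicate 1, the ALDH1B1 value was -0.19 and lost its call (limma adjusted p = 0.0614), whereas ALDH1L1 was called at 1.03 (limma adjusted p = 0.0324). The ALDH1B1 call was also lost without DSF replicate 2 (-0.22). As the mean over probes, ALDH3A1 was called higher in Huh1 (0.41, limma adjusted p = 0.0451) and ALDH3A2 lower (-0.23, limma adjusted p = 0.0323). In Huh7, the fit called ALDH1B1 (0.81) and ALDH1L1, which was at background, higher after DSF and ALDH3A2 (-0.45) and ALDH8A1 (-3.96) lower, where 65.2% of all genes were called, 34.5% higher and 30.7% lower. A slide block ended the ALDH3A2 call (-0.23, limma adjusted p = 0.106), and the brightest ALDH3A1 probe became called at -0.77 (limma adjusted p = 0.00846). Under spike-in scaling the Huh7 value of ALDH1B1 was -0.36. For ALDH2 in Huh7 the difference was 0.00, with a 95% interval from -0.18 to 0.19, but -1.16 under spike-in scaling. The second ALDH3A1 probe gave -0.99 in Huh7 (limma adjusted p = 8.27e-06), where the brightest gave -0.05. As the mean over probes, ALDH3A1 was called lower in Huh7 (-0.52, limma adjusted p = 0.0119). The brightest ALDH7A1 probe gave -0.23 in Huh7 and was not called (limma adjusted p = 0.127). ALDH7A1 was called as the mean over probes (-0.68, limma adjusted p = 0.00115) and with Huh7 fitted on its own (-0.23, limma adjusted p = 0.016). Both drugs were set against the same control arrays, so their changes from control are not independent.

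The interaction test called a difference between the lines in the DSF change for 5 of the 8 members. Of all genes, 46.3% were called, 24.3% higher and 21.9% lower in Huh7 than in Huh1. These 5 members include ALDH1L1, which passed the filter through Huh1 and was mostly at background in Huh7. The Huh7 change was the higher one for ALDH1A1, ALDH1B1, ALDH1L1 and ALDH3A2 and the lower one for ALDH2, with a median of 0.57 over the 8. For 5-FU the test called 4 members, ALDH1L1, ALDH3A1, ALDH3A2 and ALDH8A1, all higher in Huh7, where 43.6% of all genes were called, 23.7% higher and 20.0% lower. The median was again 0.57, against 0.018 over all genes. With slide as a block, the DSF differences of ALDH1B1 (1.16) and ALDH3A2 (0.96) stayed called, whereas those of ALDH1A1 (0.44, limma adjusted p = 0.0733) and ALDH2 (-0.24, limma adjusted p = 0.294) did not. Leaving out single arrays ended the ALDH2 call in 9 of 12 fits. The ALDH1L1 differences set Huh1 against Huh7 arrays that were nearly all at background, so they are not read as a difference in response. The counts and medians of members above include them.

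Of 9 further aldehyde dehydrogenase genes, 8 had a named probe and were tested, and ALDH3B2 had none. After DSF, 5 fell in Huh1 and none rose, and 4 fell in Huh7 and 1 rose. Those that fell in both lines were ALDH5A1 (-0.96 and -0.51), which clears succinic semialdehyde of the GABA pathway, ALDH6A1 (-0.78 and -0.68), of valine breakdown, and ALDH18A1 (-0.39 and -0.81), of proline synthesis. The gene that rose in Huh7 was ALDH16A1 (0.60). With slide as a block, which leaves 1 DSF array in Huh7, ALDH18A1 was -0.65 and ALDH16A1 was 0.55 there. After 5-FU, 5 fell in Huh1 and 4 in Huh7 relative to the bulk of genes and none rose, but under spike-in scaling only ALDH1L2 stayed below 0 among these in each line. In both lines these included the mitochondrial folate enzyme ALDH1L2 (-1.04 and -3.01), ALDH5A1 (-0.58 and -0.73) and ALDH4A1 of proline breakdown (-0.68 and -0.57). The ALDH1L2 change differed between the lines by -1.96 ± 0.32 (limma adjusted p = 0.00027). The values of ALDH3B1 were from -0.49 to -0.20 and those of ALDH9A1 from -0.29 to -0.15, the latter not called in any comparison of a drug with control.

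**Figure D2:**
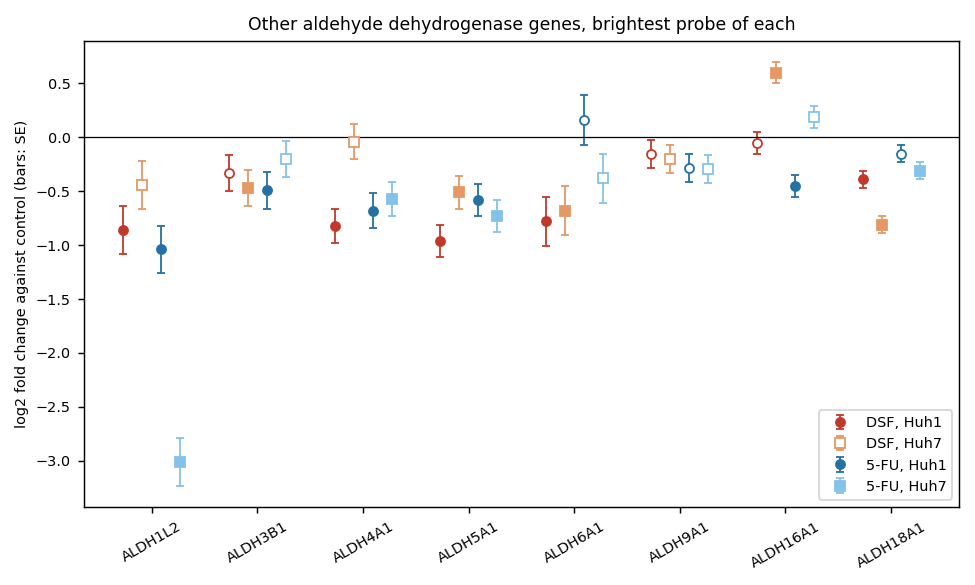
Log2 fold change against control (vertical axis, 75th-percentile scaling) of the 8 other tested aldehyde dehydrogenase genes after DSF or 5-FU in Huh1 (circles) and Huh7 (squares). Bars are SE and filled symbols were called. Most called values lie below 0 and ALDH1L2 in Huh7 after 5-FU lies lowest, at -3.01. Under spike-in scaling the 5-FU values of ALDH4A1 and ALDH5A1 lie above 0.

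Genes of the steps before acetaldehyde fell where called. Of 6 tested alcohol dehydrogenase and ethanol oxidation genes, 5 fell after DSF in Huh1 and 4 in Huh7. After 5-FU, 4 and 2 fell, with none rising in any of these comparisons. The shares of all genes called lower were 26.3% and 24.1% after DSF and 29.1% and 31.0% after 5-FU. Under spike-in scaling, 2 of the 4 falls after 5-FU in Huh1 and 0 of 2 in Huh7 stayed below 0. ADH6 (-1.73 in Huh1 and -1.05 in Huh7 after DSF), the catalase gene CAT (-1.09 and -0.65) and the formaldehyde-clearing ADH5 (-0.79 and -0.35) fell in both lines after DSF. After 5-FU these were CAT (-1.44 and -0.96) and ADH5 (-0.62 and -0.75). With slide as a block, which leaves 1 DSF array in Huh7, ADH6 after DSF was -1.01 there. Among 19 tested retinoid genes the directions were mixed. After DSF, 6 rose and 6 fell in Huh1 and 3 and 8 in Huh7. After 5-FU, 8 rose and 6 fell in Huh1 and 6 and 5 in Huh7. In that order, 26.4% and 26.3%, 29.1% and 24.1%, 25.9% and 29.1%, and 32.5% and 31.0% of all genes were called higher and lower. DSF in Huh7 was compared largely across slides, and a slide block leaves 1 DSF array there. All falls after 5-FU turned into rises under spike-in scaling. The retinal reductase DHRS3 rose in all 4 comparisons, by 1.16 and 0.46 after DSF and 1.18 and 1.24 after 5-FU. After DSF, the receptor RARG (-0.60 and -0.64) and the retinol carrier RBP4 (-0.63 and -0.52) fell in both lines. After 5-FU, the receptor RARB (0.49 and 1.68) and the retinol dehydrogenase RDH10 (1.46 and 0.63) rose in both.

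Aldo-keto reductases reduce aldehydes to alcohols. Of 11 tested, 5 fell after DSF in Huh1 and none rose, whereas in Huh7 6 rose and 1 fell, with medians of -0.27 and 1.24. AKR1A1 fell in both lines (-0.26 and -0.43). The genes that rose in Huh7, named after their values were seen, were AKR1B1 (0.65), AKR1B10 (1.25), AKR1B15 (1.35), AKR1C1 (1.33), AKR1C3 (1.79) and AKR1C4 (1.66). AKR1C1 read 4.45, 4.40 and 4.48 in Huh7 control, 5.80, 5.76 and 5.77 after DSF and 2.10, 3.14 and 3.47 after 5-FU. With slide as a block, which leaves only DSF replicate 1 in Huh7, the 6 genes that rose had values from 0.70 to 1.48. After 5-FU, 31.0% of all genes were called lower in Huh7 and 29.1% in Huh1. Of the 11, 8 fell in Huh7 and 4 in Huh1, of which 3 and 0 stayed below 0 under spike-in scaling. The gene that rose in Huh7 was AKR1D1 (3.82), which was well above background on 1 of 3 control arrays. AKR1A1 (-0.44 and -0.58), AKR1B1 (-0.58 and -0.31) and AKR7A3 (-0.42 and -0.41) fell in both lines relative to the bulk of genes and rose under spike-in scaling. The AKR1B and AKR1C genes are close paralogs, so their probes may share signal.

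Among 14 folate one-carbon genes, 2 rose and 7 fell after DSF in Huh1, 4 and 5 in Huh7, and 2 and 5 and 6 and 5 after 5-FU. A slide block left 2 of these rises and 2 of these falls after DSF in Huh7, and spike-in scaling left 1 of 5 falls after 5-FU below 0 in Huh1 and 3 of 5 in Huh7. SHMT1 (-0.86 and -0.71) and the folate hydrolase GGH (-0.56 and -0.42) fell in both lines after DSF, and MTHFD2L rose (0.80 and 0.38). The mitochondrial SHMT2 (-1.12 and -1.05), MTHFD1L (-0.60 and -0.83) and the polyglutamate synthase FPGS (-0.63 and -0.53) fell after 5-FU, of which only SHMT2 stayed below 0 under spike-in scaling (-0.29 and -0.06). Of 13 genes of the lysine, choline and tryptophan steps beside ALDH7A1 and ALDH8A1, 7 fell and none rose after DSF in Huh1, and 3 rose and 4 fell in Huh7. The shares of all genes called are those given above. With slide as a block, which leaves 1 DSF array in Huh7, ACMSD was -0.32 and DMGDH -0.51 there. After 5-FU, 3 rose and 5 fell in Huh1 and 5 rose and 5 fell in Huh7, of which 3 and 1 of the falls stayed below 0 under spike-in scaling. ACMSD, the branch enzyme that feeds ALDH8A1, fell after DSF (-1.15 and -0.33) and rose after 5-FU (0.68 and 2.11). DMGDH (-1.19 and -0.58) and QPRT (-0.75 and -0.56) fell after DSF, and the lysine enzyme AASS (-1.51 and -1.26) fell and the tryptophan dioxygenase TDO2 (1.18 and 0.63) rose after 5-FU.

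All 10 hepatocyte-lineage and all 5 epithelial genes, EPCAM included, were well above background on all 18 arrays. The summed hepatocyte-lineage level was between 9.40 and 9.51 in Huh1 control and between 8.99 and 9.10 after DSF, and between 9.95 and 9.99 in Huh7 control and 9.65 and 9.84 after DSF. After DSF, 9 of 10 markers were called lower in Huh1 and 5 of 10 in Huh7, beside 26.3% and 24.1% of all genes. The markers were mixed after 5-FU relative to the bulk of genes. For Huh1, 4 markers rose and 4 fell, with a median change of 0.08, beside 25.9% of all genes higher and 29.1% lower. For Huh7, 5 rose and 4 fell, with a median of 0.18, beside 32.5% and 31.0%. Under spike-in scaling, 0 of the 4 marker falls stayed below 0 in each line. Of the ALDH members called lower after 5-FU, 1 of 7 did in Huh1 and 0 of 4 in Huh7. Whether the marker changes had a part in the ALDH values was not tested. The sort marker EPCAM itself fell after DSF, by -0.66 in Huh1 and -0.50 in Huh7, as did CDH1 (-0.69 and -1.25), while KRT19 rose in Huh1 (1.98), KRT8 fell in Huh1 (-0.55) and rose in Huh7 (0.42), and KRT18 rose in Huh7 (0.51). Of the leukocyte markers, the defining PTPRC was dim on all 18 arrays, from -5.02 to -4.33, and was called in no comparison of a drug with control, and CD3E was well above background on 6 arrays. CD14 and CD68 were above it on all 18, and CD14 fell after DSF (-0.69 and -0.77) while CD68 rose after 5-FU (0.68 and 1.59). Among endothelial markers, KDR was at background on all 18 arrays, LYVE1 was above it on 2, VWF on 13 and PECAM1 and CDH5 on all 18. VWF rose after DSF in Huh1 (1.17), CDH5 after DSF in Huh7 (0.82) and PECAM1 after 5-FU in Huh7 (1.02), whereas PECAM1 fell after DSF in Huh1 (-0.55). Of the fibroblast markers, COL3A1 was above background on 1 array, COL1A2 on 2, ACTA2 on 4, PDGFRB on 5, COL1A1 on 11 and DES on all 18. PDGFRB was higher after 5-FU in Huh7 (2.10) and lower after DSF in Huh1 (-1.05), and COL1A1 was lower after DSF in Huh7 (-2.0), all 3 including arrays at background. The part of these markers in the ALDH results was not tested.

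Over the 18 arrays, the genes whose signal followed a member most closely differed from member to member. They were NAPRT (Pearson r = 0.973), SELENOO (0.967) and NDUFA3 (0.967) for ALDH1A1, MAPK3 (0.981), GMDS (0.976) and C1RL (0.974) for ALDH2, and TXN2 (0.953), ADISSP (0.931) and TPGS2 (0.913) for ALDH1B1. For ALDH3A2 they were EPHX1 (0.995), PTGR1 (0.995) and PLPP1 (0.994), for ALDH3A1 LIPE, KCNN4 and DQX1 (0.996 each), and for ALDH7A1 DIPK1A (0.991), UBE2R2 (0.987) and MESP2 (0.986). The arrays share 2 lines, so r near 1 mostly restates the gap between the lines. These are descriptions without a test.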

How the data were processed

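RNA of EpCAM+ cells was labelled with Cy3 and hybridised to 18 Agilent human arrays. The authors scanned them with Agilent Feature Extraction, version 10.7.1.1 per the file headers. They deposited background-subtracted signal as linear intensity, with a normalized table of the same arrays, also on a linear scale. Here, log2 intensity minus the log2 75th percentile of each array was used. Flagged outlier spots and controls were left out, which removed 78 probes of 42405, and 42327 remained. Between 59.87% and 71.1% of probes were well above background per array, 316 to 447 spots per array were flagged and 0 were saturated. The number of arrays limits the precision, since no read depth exists. A probe entered the fit when some group had it well above background on each of its 3 arrays. The fit used limma 3.58.1 under R 4.3.3 with 1 term per group and Benjamini-Hochberg adjustment over all tested probes, after tests on simulated data. RefSeq identifiers were attached to 27099 probes and gave a current symbol for 25736, while 0 probes were named by symbol alone. Samples were grouped by their labels. Where no array of a group was above background, a bound was given as fold against the higher of the lowest signal well above background and the probe's own. Replicate numbers were not used to pair the samples, since the labels state no pairing. Same-numbered arrays were little related (45 pairs, r from -0.093 to 0.103, 1 over 0.1), which cannot exclude a pairing. Alternatives were normexp background correction (offset 50, on the median signal in place of the planned mean signal). Others were quantile, median and spike-in scaling (probes over log2 8), no filter, and a filter over all 18 arrays. Further fits used slide and replicate blocks, array weights, trend and robust variance, and each line alone. The last were the mean over probes, the authors' deposited normalized table after log2, and leaving out each array. List genes were named when called in the same direction in both lines, at most 3 per list and drug. The members and lists were chosen with earlier results of these data known. Promoters came from RefSeq, while the probe design was on hg19. One item of the leukocyte marker list, and the summed level of that list, are not reported here.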

Additional observations from a re-analysis of the deposited data

Results flagged for a closer look

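Differences between the lines in the size of a drug effect were singled out where the interaction test of the limma fit was called, each as the Huh7 change minus the Huh1 change on the log2 scale. After DSF they were 0.39 for ALDH1A1, 1.03 for ALDH1B1, 2.13 for ALDH1L1, -0.33 for ALDH2 and 0.74 for ALDH3A2. After 5-FU they were 1.57 for ALDH1L1, 1.32 for ALDH3A1, 1.15 for ALDH3A2 and 3.28 for ALDH8A1. Both ALDH1L1 values rest on Huh7 arrays where the probe was mostly not well above background. The second probes gave 1.71 for ALDH3A1 and 0.85 for ALDH3A2 after 5-FU and 0.77 for ALDH3A2 after DSF, all called. Huh7 DSF replicates 2 and 3 lay alone on slide 3. The part of the slide in the DSF differences was not tested beyond the values with slide as a block. Those values rest on DSF replicate 1 in Huh7.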

How the results depend on the processing

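Of the counts of members called under each alternative, 169 stayed within 1.5 times the first value and 11 did not. Under spike-in scaling the count became 3 for DSF in Huh7, 3 for 5-FU in Huh1 and 3 for the DSF difference between lines. It was 5 and 7 for DSF against 5-FU in Huh1 and Huh7. In that order, 9335, 22736, 8364, 20133 and 25013 of 29894 probes were called. With slide as a block, which leaves 1 DSF array in Huh7, the counts for DSF in Huh7 and for the DSF difference fell. For DSF against 5-FU in Huh1 the count was 6 with array weights and 5 with the mean over probes. Array weights called 19802 of 29894 probes there. With only probes well above background on all 18 arrays, it was 2 for DSF against 5-FU in Huh7 and 2 for the 5-FU difference. There, 15146 and 9303 of 22427 probes were called.

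The following values changed sign. After DSF in Huh7, ALDH3A1 was -0.10 both with slide as a block and within slide 2, and ALDH3A2 was -0.09 under spike-in scaling, -0.01 with array weights and -0.13 as the mean over probes. After 5-FU in Huh1, spike-in scaling gave ALDH1A1 0.43, ALDH1B1 0.36, ALDH2 0.42, ALDH3A1 0.17, ALDH3A2 0.20, ALDH7A1 0.49 and ALDH8A1 0.21, and quantile normalization gave ALDH1A1 0.02. After 5-FU in Huh7, spike-in scaling gave ALDH1A1 0.48, ALDH1B1 0.49, ALDH1L1 0.79, ALDH2 0.40 and ALDH7A1 0.61, and quantile normalization gave ALDH1L1 0.09. For DSF against 5-FU in Huh1, spike-in scaling gave ALDH1L1 -0.05, ALDH2 -0.53 and ALDH3A1 -0.28, and array weights gave ALDH3A2 0.03. For the same comparison in Huh7, spike-in scaling gave ALDH1A1 -1.08, ALDH1B1 -0.36 and ALDH2 -1.16. There, quantile normalization gave ALDH1A1 -0.41 and ALDH2 -0.11, ALDH2 was -0.06 with normexp, -0.04 with median scaling and -0.09 with array weights, and ALDH3A1 was 0.28 with array weights. For the DSF difference between lines, ALDH7A1 was -0.08 under spike-in scaling and ALDH8A1 was 0.42 with normexp and 0.10 with slide as a block. For the 5-FU difference, spike-in scaling gave ALDH1A1 0.05, ALDH1B1 0.14 and ALDH7A1 0.13, array weights gave ALDH1A1 0.02, ALDH2 0.02 and ALDH7A1 0.16, and median scaling gave ALDH1B1 0.03 and ALDH7A1 0.02. The spike-in sign changes follow from its constant shift, and the cause of the others was not tested.

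Leaving out 1 array moved these values across 0. ALDH3A2 after DSF in Huh7 was from -0.02 to 0.14 and ALDH1L1 after 5-FU in Huh7 from -0.68 to 0.06. For DSF against 5-FU, ALDH3A2 in Huh1 was from -0.08 to 0.03, and in Huh7 ALDH1A1 was from -0.02 to 0.14, ALDH2 from -0.04 to 0.06 and ALDH3A1 from -0.24 to 0.32. The DSF difference of ALDH8A1 was from -0.89 to 0.88, and the 5-FU differences of ALDH1B1 and ALDH7A1 from -0.06 to 0.05 and from -0.14 to 0.18.

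A replicate block was also fitted, although the labels do not say whether equal numbers mark the same experiment. The members called were 6 and 5 after DSF and 5 and 7 after 5-FU in Huh1 and Huh7. Of 29894 probes, that fit called 12814 and 13534 after DSF and 14077 and 16775 after 5-FU. The calls lost were ALDH3A1 after DSF in Huh7 (0.62, limma adjusted p = 0.0678), ALDH3A1 (-0.66, limma adjusted p = 0.0531) and ALDH7A1 (-0.34, limma adjusted p = 0.0536) after 5-FU in Huh1, and the DSF difference of ALDH2 (-0.33, limma adjusted p = 0.063). The deposited normalized table changed no call of a member. Up to a constant per array, 100% of its log2 values lay within 0.05 of those used here. It was therefore no separate check of the processing. Values near background, as for ALDH1L1 and ALDH8A1 in Huh7, limit those results.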
